A study of Mus musculus with 20 samples.

Results

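Gastrocnemius of SOD1G93A mice was compared with gastrocnemius of non-transgenic mice on 8 of the 20 Affymetrix arrays of the series: the 4 arrays titled for SOD1G93A gastrocnemius (called SOD1 here) and the 4 titled for non-transgenic gastrocnemius (NTg), all taken at 14 weeks. All were female mice on a C57BL/6 background, and the SOD1 mice carried the mutant human SOD1 of their name as a transgene and were labelled symptomatic. The labels used here do not state the promoter or copy number of the transgene, or whether the NTg mice were littermates. The other 12 arrays held SOD1 and NTg triceps of the same age and gastrocnemius 2 weeks after a crush of the sciatic nerve; they entered the fit to share the estimate of the spread, and the triceps arrays also served for a test of the difference between muscles. The titles call the replicates biological replicates, none of the labels says which mouse a numbered array came from, and 4 arrays a group limit the precision of every value.

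The SOD1G93A mouse is a widely used model of amyotrophic lateral sclerosis, in which motor neurons degenerate and their axons withdraw from the muscle. A muscle fibre that loses its nerve is known to make acetylcholine receptors along its whole length, to switch on the myogenic regulators Myog and Myod1, to express embryonic sarcomere proteins again and to shrink as proteasome and autophagy degrade its proteins. Fast glycolytic fibres, which make up most of the gastrocnemius, are known to lose their nerve supply early in this model. In whole muscle, fewer cells of a type and less RNA per cell cannot be told apart.

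Signals are MAS5 values on a log2 scale, so a difference of 1 is a 2-fold change, and levels of different probe sets are not compared. Changes are SOD1 minus NTg means of 4 arrays each, with their standard error (SE) from limma, and every adjusted p is limma's with Benjamini-Hochberg adjustment over all probe sets tested. Array medians over the series lay between 6.61 and 6.76, and Pearson's r between arrays across probe sets ranged from 0.945 to 0.973 within SOD1 and from 0.969 to 0.973 within NTg gastrocnemius. The labelled tissue was checked as skeletal muscle by its markers. The mean level of 19 skeletal muscle genes was 11.74 to 12.44 on SOD1 and 11.87 to 12.44 on NTg arrays. The check does not tell gastrocnemius from triceps. Ckm had means of 11.655 in NTg gastrocnemius and 11.668 in NTg triceps, and Atp2a1 had 11.82 and 11.66. The mouse Sod1 probe set had levels of 11.15, 11.28, 10.98 and 10.93 on SOD1 replicates 1 to 4 and 10.47, 10.69, 10.87 and 10.73 on NTg replicates 1 to 4. The groups did not overlap, but the difference did not pass the test (log2 change 0.40, SE 0.19, adjusted p = 0.172), and whether the probe set reads the human transgene was not tested, so it does not check the labels.

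Of 7523 probe sets tested, 902 (12.0%) differed at an adjusted p under 0.05, 449 of them higher (5.97%) and 453 lower (6.02%) in SOD1. An unadjusted p under 0.05, counted below for some lists, was found for 2217 of the 7523. Taken as genes, 584 of 4832 (12.1%) were called, 305 higher (6.31%) and 279 lower (5.77%). The shift was balanced in number but not in size. The balance moved with the filter on dim probe sets: 525 were higher and 456 lower without it, and 307 and 406 with the lowest 60% left out. The filter took the mean over all 20 arrays. Genes dim on NTg arrays, such as Cpne2 (NTg mean 3.71), thus passed by their level in other groups. Such genes have room to rise and little to fall, and their part in the sizes was not tested. A change of at least 1 on the log2 scale was seen in 98 called genes that rose and 47 that fell, a change of at least 2 in 23 and 3, and a change of at least 3 in 12 and 0. The median change was 0.80 among called genes that rose, and among those that fell it was -0.64, while the median over all genes tested was 0.006. The 4 SOD1 and 4 NTg arrays did not overlap for 543 of the 584 called genes, and for 1244 of all genes tested (25.7%).

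The number of calls rested on every array. With SOD1 replicate 4 left out it was 178 probe sets, with replicate 2 left out 372 and with replicate 3 left out 417, but it was 1316 when SOD1 replicate 1 was left out. Without NTg replicates 1, 2, 3 or 4 it was 442, 419, 498 or 365. Of 169 called genes named under the rule given with the processing, 46 kept their call without any 1 of the 8 arrays, while 4 lost it without SOD1 replicate 1, 77, 73 and 122 without SOD1 replicates 2, 3 and 4, and 71, 69, 59 and 90 without NTg replicates 1 to 4. Counts of list members moved with them, mostly upward without SOD1 replicate 1 and downward without any of the others, and what was left without SOD1 replicate 4 or over the 8 omissions is given with the lists described. The arrays of the other groups entered through the shared spread: without crush replicate 4 the count was 1341, with only the 8 arrays compared 1768, and with arrays weighted by their agreement 2512.

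**Figure D1:**
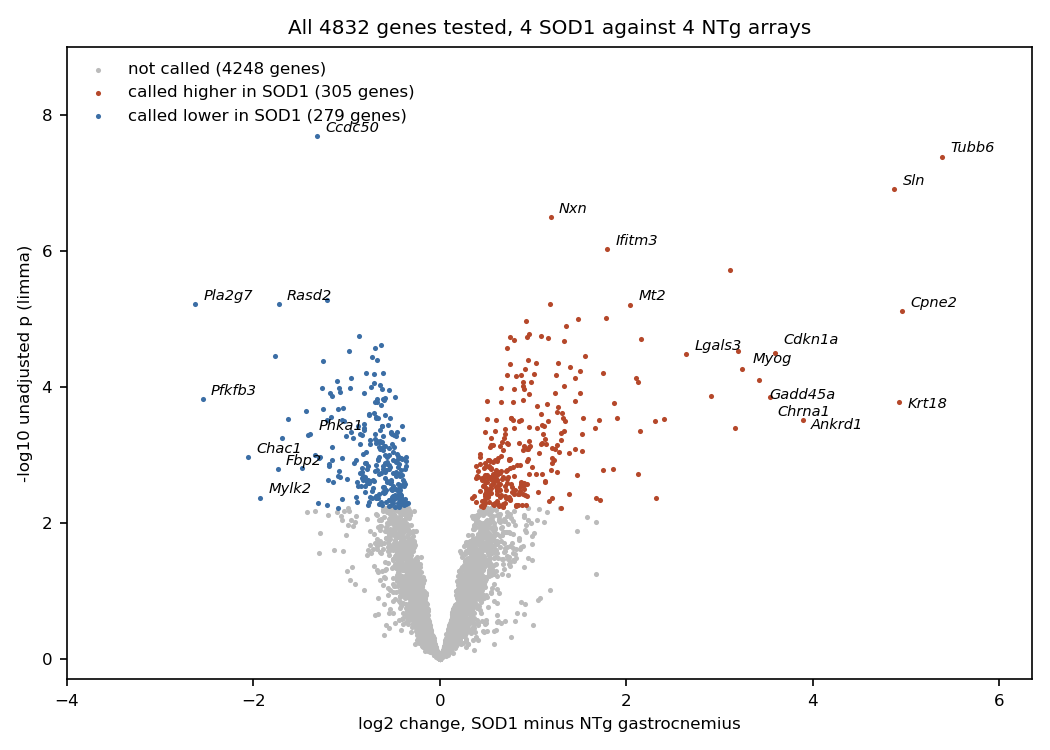
Change of each of the 4832 genes tested (x axis, log2, SOD1 minus NTg gastrocnemius) against the negative log10 of its unadjusted limma p (y axis), with called genes coloured and some named. Rises reach beyond 5 on the log2 scale (Tubb6), whereas the largest fall, that of Pla2g7, is 2.62.

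The acetylcholine receptor and the myogenic regulators that govern it were examined first. Chrna1, Chrnb1 and Myog are shown here by their promoters because they rose together and because the Myod1 family is known to bind one element, the E-box. The windows run from 250 bases before to 50 after the RefSeq gene start (GRCm38.p6), 5′ to 3′ on the strand of the gene, with each E-box (CANNTG, which reads the same on both strands) in capitals. That of Chrna1 is chr2:73580289-73580588 (minus strand), that of Chrnb1 chr11:69795888-69796187 (minus strand) and that of Myog chr1:134289754-134290053 (plus strand).
Chrna1: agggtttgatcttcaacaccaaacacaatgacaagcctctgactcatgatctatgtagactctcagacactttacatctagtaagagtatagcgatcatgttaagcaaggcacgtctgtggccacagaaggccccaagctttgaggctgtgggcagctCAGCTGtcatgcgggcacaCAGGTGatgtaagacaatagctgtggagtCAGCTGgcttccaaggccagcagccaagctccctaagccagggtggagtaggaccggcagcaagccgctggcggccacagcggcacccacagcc
Chrnb1: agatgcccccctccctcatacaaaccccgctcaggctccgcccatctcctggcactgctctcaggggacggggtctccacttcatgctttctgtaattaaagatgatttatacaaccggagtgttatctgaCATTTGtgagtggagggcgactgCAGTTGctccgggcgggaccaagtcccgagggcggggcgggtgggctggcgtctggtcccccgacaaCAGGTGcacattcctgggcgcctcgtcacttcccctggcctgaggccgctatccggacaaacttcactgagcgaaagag
Myog: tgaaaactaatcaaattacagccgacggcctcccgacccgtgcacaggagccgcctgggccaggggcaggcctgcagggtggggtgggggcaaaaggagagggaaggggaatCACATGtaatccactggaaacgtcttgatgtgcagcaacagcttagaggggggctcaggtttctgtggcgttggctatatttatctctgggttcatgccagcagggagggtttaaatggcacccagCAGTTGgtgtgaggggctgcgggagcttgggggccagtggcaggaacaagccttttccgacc
The Chrna1 window held 3 matches, 2 of them CAGCTG, the Chrnb1 window 3 and the Myog window 2. A match is common and marks no group: CANNTG was found in 60.8% of the 3982 windows of genes tested, in 64.6% of those of genes that rose and in 59.9% of those of genes that fell. CAGCTG was found in 13.4%, 16% and 14.3%.

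Chrna1, the alpha subunit of the muscle receptor, had levels of 8.57, 10.23, 10.30 and 10.85 on SOD1 replicates 1 to 4 and 6.55, 6.24, 6.82 and 6.20 on NTg replicates 1 to 4. Every SOD1 array lay above every NTg array, with SOD1 replicate 1 the lowest and replicate 4 the highest (log2 change 3.54, SE 0.75, adjusted p = 0.00846). Chrnb1, the beta subunit, stood at 7.26, 8.11, 8.45 and 8.89 on SOD1 replicates 1 to 4 and 6.57, 6.24, 6.62 and 6.30 on NTg replicates 1 to 4. It rose 3.35-fold (log2 change 1.75, SE 0.48, adjusted p = 0.0259), in the same order of the SOD1 arrays. The fetal gamma subunit Chrng was too dim over all arrays to pass the filter, and its levels were 5.43, 7.03, 7.41 and 7.73 on SOD1 replicates 1 to 4 and 1.72, 1.40, 0.95 and 2.0 on NTg replicates 1 to 4. The NTg arrays were at the bottom of the scale, and in the fit without a filter, where the gene was singled out after its values were seen, the change was 5.38, SE 1.38, adjusted p = 0.0222. Chrne, the adult epsilon subunit that replaces gamma after birth, had a mean of 5.30 against 5.73 and was not called in that fit. Of the 10 tested genes of the receptor and junction list, only Chrna1 and Chrnb1 were called, and the rest, among them Rapsn, which clusters the receptor (0.21), lay between -0.32 and 0.43. Chrnb1 lost its call without SOD1 replicates 2, 3 or 4 or NTg replicates 1, 2 or 4, while Chrna1 kept it in every omission.

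All 4 myogenic regulators that rose belong to the Myod1 family or oppose it. Myog was 8.35, 9.18, 9.97 and 9.75 on SOD1 replicates 1 to 4 and 5.75, 6.14, 6.32 and 6.07 on NTg replicates 1 to 4, with no overlap (log2 change 3.24, SE 0.64, adjusted p = 0.00634). Myod1 stood at 7.65, 8.38, 9.30 and 9.21 on SOD1 replicates 1 to 4 and 6.32, 6.70, 6.36 and 6.65 on NTg replicates 1 to 4, again highest on SOD1 replicates 3 and 4 (log2 change 2.13, SE 0.59, adjusted p = 0.0273). Myf6, the family member of mature fibres, had levels of 9.51, 9.91, 9.91 and 10.12 on SOD1 replicates 1 to 4 and 8.55, 8.70, 8.53 and 8.49 on NTg replicates 1 to 4 and a narrow spread in both groups (log2 change 1.30, SE 0.32, adjusted p = 0.0164). Id3, an inhibitor of these factors, rose by 1.39 (adjusted p = 0.0384), and Nfatc3, a calcium-dependent transcription factor, fell by 0.52 (adjusted p = 0.0355). In all, 4 of 12 tested regulators rose and 1 fell, with a median change of 0.45 against 0.006 over all genes; without 1 of the 8 arrays 1 to 4 rose, and without SOD1 replicate 4 Myog was the only regulator called. Myod1 kept its call in 1 of the 8 omissions, that of SOD1 replicate 1. Runx1, a transcription factor of denervated muscle below the filter, had levels of 5.81, 7.44, 7.37 and 7.81 on SOD1 replicates 1 to 4. On NTg replicates 1 to 4 they were 3.58, 2.39, 4.01 and 3.19, with no overlap (fit without a filter, 3.82, SE 0.91, adjusted p = 0.0158). It was singled out after its values were seen. Of the other regulators below the filter, Id2 was also called in that fit (2.59, adjusted p = 0.0259). Sox11 (2.34), Myf5 (1.23) and Dach2 (-0.30) were not.

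**Figure D2:**
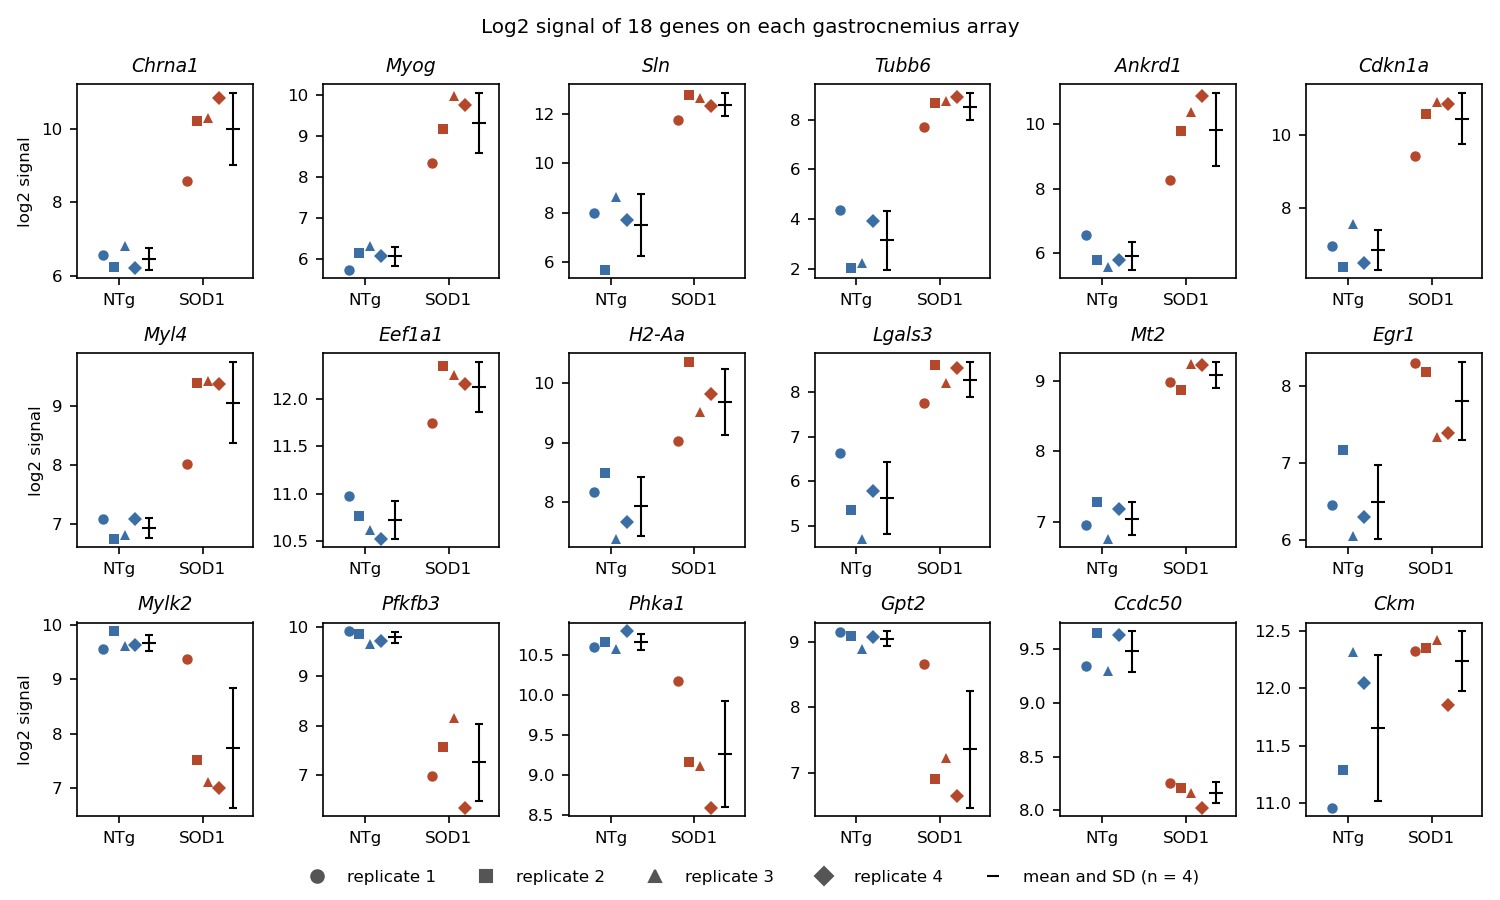
Log2 signal (y axis) of 18 genes on the 4 NTg and 4 SOD1 gastrocnemius arrays, 1 symbol per replicate number, with the mean and SD of each group beside the points. The 2 groups do not overlap for any gene except Ckm, and SOD1 replicate 1 (circles) lies nearest to NTg for Chrna1, Myog, Myl4, Mylk2 and Gpt2 but not for Pfkfb3, Mt2 or Egr1.

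Of 7 embryonic and cardiac sarcomere genes tested 2 rose, Myl4 and Ankrd1, and none fell (median 0.57). Myl4, the embryonic and atrial light chain of myosin, was 8.03, 9.41, 9.44 and 9.37 on SOD1 replicates 1 to 4 and 7.09, 6.75, 6.82 and 7.08 on NTg replicates 1 to 4, with SOD1 replicate 1 well below the other SOD1 arrays but above all NTg arrays (log2 change 2.13, SE 0.43, adjusted p = 0.00705). Ankrd1, a stress-responsive protein of the titin filament, was 8.27, 9.77, 10.37 and 10.86 on SOD1 replicates 1 to 4 and 6.55, 5.78, 5.58 and 5.79 on NTg replicates 1 to 4. It did not overlap (log2 change 3.89, SE 0.89, adjusted p = 0.0112), but was not called without SOD1 replicate 4. Of 171 members of all lists below the filter, 22 were called in the fit without it, which called 981 of all 10748 probe sets. The embryonic sarcomere list had 4, and the 2 called there were singled out after their values were seen. Myh3, the embryonic myosin heavy chain, stood at 6.62, 7.72, 7.90 and 8.66 on SOD1 replicates 1 to 4 and 5.34, 3.45, 4.78 and 5.11 on NTg replicates 1 to 4 and did not overlap (fit without a filter, 3.06, SE 0.76, adjusted p = 0.0200). Tnnt2, the embryonic and cardiac troponin T, was 6.59, 7.61, 7.79 and 9.33 on SOD1 replicates 1 to 4 and 4.38, 4.33, 4.30 and 4.78 on NTg replicates 1 to 4 (fit without a filter, 3.38, SE 0.89, adjusted p = 0.0246). Both were highest on SOD1 replicate 4 and lowest of the SOD1 arrays on replicate 1. Myh8, the perinatal myosin heavy chain, was 4.48, 6.51, 6.71 and 8.65 on SOD1 replicates 1 to 4 and 3.10, 4.64, 4.19 and 4.99 on NTg replicates 1 to 4, where the groups overlapped (fit without a filter, 2.36, SE 0.84, adjusted p = 0.0782). Mymk, a protein of myoblast fusion, was the other and did not pass (fit without a filter, 2.51, SE 0.85, adjusted p = 0.0668). Actc1, cardiac actin, had a change of -0.70 and was not called (adjusted p = 0.429).

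Of 14 fast-fibre sarcomere genes, 1 was called, and of 10 slow-fibre genes limma called none, with 0 at an unadjusted p under 0.05. The fast myosin heavy chains Myh1, Myh2 and Myh4 had changes of 0.11, -0.12 and -0.10. The called one was Mylk2, the kinase of fast skeletal myosin light chain, at 9.36, 7.51, 7.10 and 6.99 on SOD1 replicates 1 to 4 and 9.54, 9.88, 9.62 and 9.62 on NTg replicates 1 to 4. SOD1 replicate 1 lay just under the lowest NTg array and the other SOD1 arrays far below it, so the group difference (log2 change -1.92, SE 0.60, adjusted p = 0.0410) is mostly that of replicates 2 to 4. It was called without SOD1 replicate 1 and in none of the other 7 omissions. The slow-fibre list differed among the controls themselves: its median on NTg replicate 2 was -1.49 relative to the other 3 NTg arrays, and on NTg replicate 3 it was 0.86. Ckm, muscle creatine kinase, was 12.33, 12.35, 12.42 and 11.86 on SOD1 replicates 1 to 4 and 10.96, 11.29, 12.32 and 12.05 on NTg replicates 1 to 4; its NTg arrays spanned more than the difference between the groups (log2 change 0.59, SE 0.68, adjusted p = 0.598).

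Genes that set the electrical and calcium behaviour of the fibre changed in both directions. Sln, sarcolipin, which restrains the calcium pump of the sarcoplasmic reticulum, had levels of 11.76, 12.78, 12.66 and 12.31 on SOD1 replicates 1 to 4 and 7.99, 5.70, 8.63 and 7.70 on NTg replicates 1 to 4, one of the widest gaps on the array (log2 change 4.88, SE 0.61, adjusted p = 0.000309). Its fold of 29.4 was 19.3 without NTg replicate 2, the lowest control. Sln was the only riser among 24 tested genes of excitation-contraction coupling and calcium handling, of which 5 fell, with a list median of -0.19. Jph1, a junctophilin that holds the triad together, was 7.54, 6.77, 6.94 and 6.26 on SOD1 replicates 1 to 4 and 8.29, 7.92, 7.98 and 7.59 on NTg replicates 1 to 4, which did not overlap (log2 change -1.07, SE 0.30, adjusted p = 0.0289), and Jph2 fell by 0.89. The other falls were all calcineurin subunits, Ppp3ca by 0.50, Ppp3cb by 0.93 and Ppp3r1 by 0.45, but another probe set of Ppp3cb had a change of 0.27. Other Ppp3ca probe sets had changes of -0.64, which was called, and -0.20, which was not. The release channel Ryr1 (-0.42, adjusted p = 0.0789) and the voltage sensor Cacna1s (-0.27, adjusted p = 0.166) were not called. Clcn1, the muscle chloride channel that keeps the membrane from firing on its own, was 7.24, 6.33, 6.32 and 6.12 on SOD1 replicates 1 to 4 and 7.72, 8.0, 7.46 and 7.55 on NTg replicates 1 to 4 (log2 change -1.18, SE 0.32, adjusted p = 0.0235), and Atp1b2, a sodium pump subunit, fell by 1.02 (adjusted p = 0.0112). These were the 2 called of 8 excitability genes (median -0.37). Without SOD1 replicate 4, none of these falls was called, and Sln kept its call in every omission.

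At the membrane, Utrn, utrophin, the protein of the junction that resembles dystrophin, was 6.51, 6.81, 7.0 and 7.44 on SOD1 replicates 1 to 4 and 6.50, 6.21, 6.07 and 6.34 on NTg replicates 1 to 4; SOD1 replicate 1 lay at the highest NTg array and replicate 4 was highest (log2 change 0.66, SE 0.18, adjusted p = 0.0259). Nos1, the neuronal nitric oxide synthase that dystrophin holds at the membrane, fell by 1.34 (adjusted p = 0.0210). They were the called ones among 14 members (14.29%, near the 12.1% of all genes tested), whose median was 0.03. Capn3, the muscle calpain, fell by 0.95, Tmod4, which caps thin filaments, by 0.65 and Pdlim7, a Z-disc protein, by 0.65, which were the falls among 19 Z-disc and filament support genes. Cryab, the small heat shock protein of the Z-disc, rose by 0.58 (adjusted p = 0.0228). None of these calls was made without SOD1 replicate 4.

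The cytoskeleton gave several of the largest rises. Tubb6, a beta tubulin, had levels of 7.71, 8.69, 8.75 and 8.93 on SOD1 replicates 1 to 4 and 4.37, 2.03, 2.24 and 3.92 on NTg replicates 1 to 4 (log2 change 5.38, SE 0.63, adjusted p = 0.000154); the NTg values are so dim that the 41.7-fold is uncertain, while the lowest SOD1 array lay far above the highest NTg array. Tubb2a rose by 2.10, Tuba1a by 0.86, Tubb5 by 0.73, Dync1h1, the heavy chain of dynein, by 0.60 and Tbca, a tubulin folding cofactor, by 0.55. Tuba8, an alpha tubulin of adult muscle, went the other way, at 9.39, 8.84, 8.97 and 8.37 on SOD1 replicates 1 to 4 and 9.90, 9.98, 9.78 and 10.10 on NTg replicates 1 to 4 (log2 change -1.05, SE 0.28, adjusted p = 0.0216). Of 20 tubulin and microtubule genes 6 rose and 1 fell (median 0.33; 3 to 8 rose without 1 array, the fewest without SOD1 replicate 4, where Tuba8 also lost its call). Tubb6, Tubb2a and Tubb5 were called in every omission, but another Tubb5 probe set had a change of 0.50 and was not called.

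Krt18 and Krt8, the paired keratins of simple epithelia, rose along with Lmna, a nuclear lamin. Krt18 was 7.99, 9.83, 9.43 and 10.61 on SOD1 replicates 1 to 4 and 5.01, 6.20, 1.80 and 5.16 on NTg replicates 1 to 4, with its NTg arrays dim and scattered (log2 change 4.92, SE 1.06, adjusted p = 0.00876), and its fold of 30.4 was 16.1 without NTg replicate 3. Krt8 was 6.08, 7.71, 7.20 and 9.53 on SOD1 replicates 1 to 4 and 5.11, 5.81, 5.17 and 5.13 on NTg replicates 1 to 4 (log2 change 2.32, SE 0.72, adjusted p = 0.0415). SOD1 replicate 1 lay just above the highest NTg array and replicate 4 far above the other SOD1 arrays. The Krt8 fold was 5.0 with all arrays and 3.23 without SOD1 replicate 4, where it was not called. The 3 calls were among 7 tested intermediate filament genes (median 0.44). When any 1 of the 8 arrays other than SOD1 replicate 1 was left out, 1 of them was called, Krt18.

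Regulators of cytoplasmic actin rose more modestly. Tmsb10, a thymosin that binds actin monomers, was 9.68, 10.69, 10.54 and 10.49 on SOD1 replicates 1 to 4 and 9.42, 9.06, 8.52 and 8.61 on NTg replicates 1 to 4 (log2 change 1.45, SE 0.29, adjusted p = 0.00668). Msn, moesin, which ties actin to the membrane, rose by 0.89, Cfl1, cofilin, by 0.71, Myh9, non-muscle myosin, by 0.70, Tmsb4x by 0.59 and Arpc2, of the branching complex, by 0.46, whereas Capzb, which caps filaments at the Z-disc, fell by 0.53. That made 6 higher and 1 lower of 18 (median 0.40), and 2 higher and 0 lower without SOD1 replicate 4. Another Cfl1 probe set had a change of 0.46 and was not called. Among annexins and S100 proteins, calcium-binding proteins of membrane repair and signalling, 5 of 13 rose and 0 fell (median 0.44). S100a4 rose by 1.52, Anxa4 by 1.13 and S100a13 by 0.91; S100a10 and Anxa7 had other probe sets with changes of -0.21 and 0.19. Without SOD1 replicate 4 none of the annexin and S100 genes was called. Tmsb10 and Msn kept their calls throughout.

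**Figure D3:**
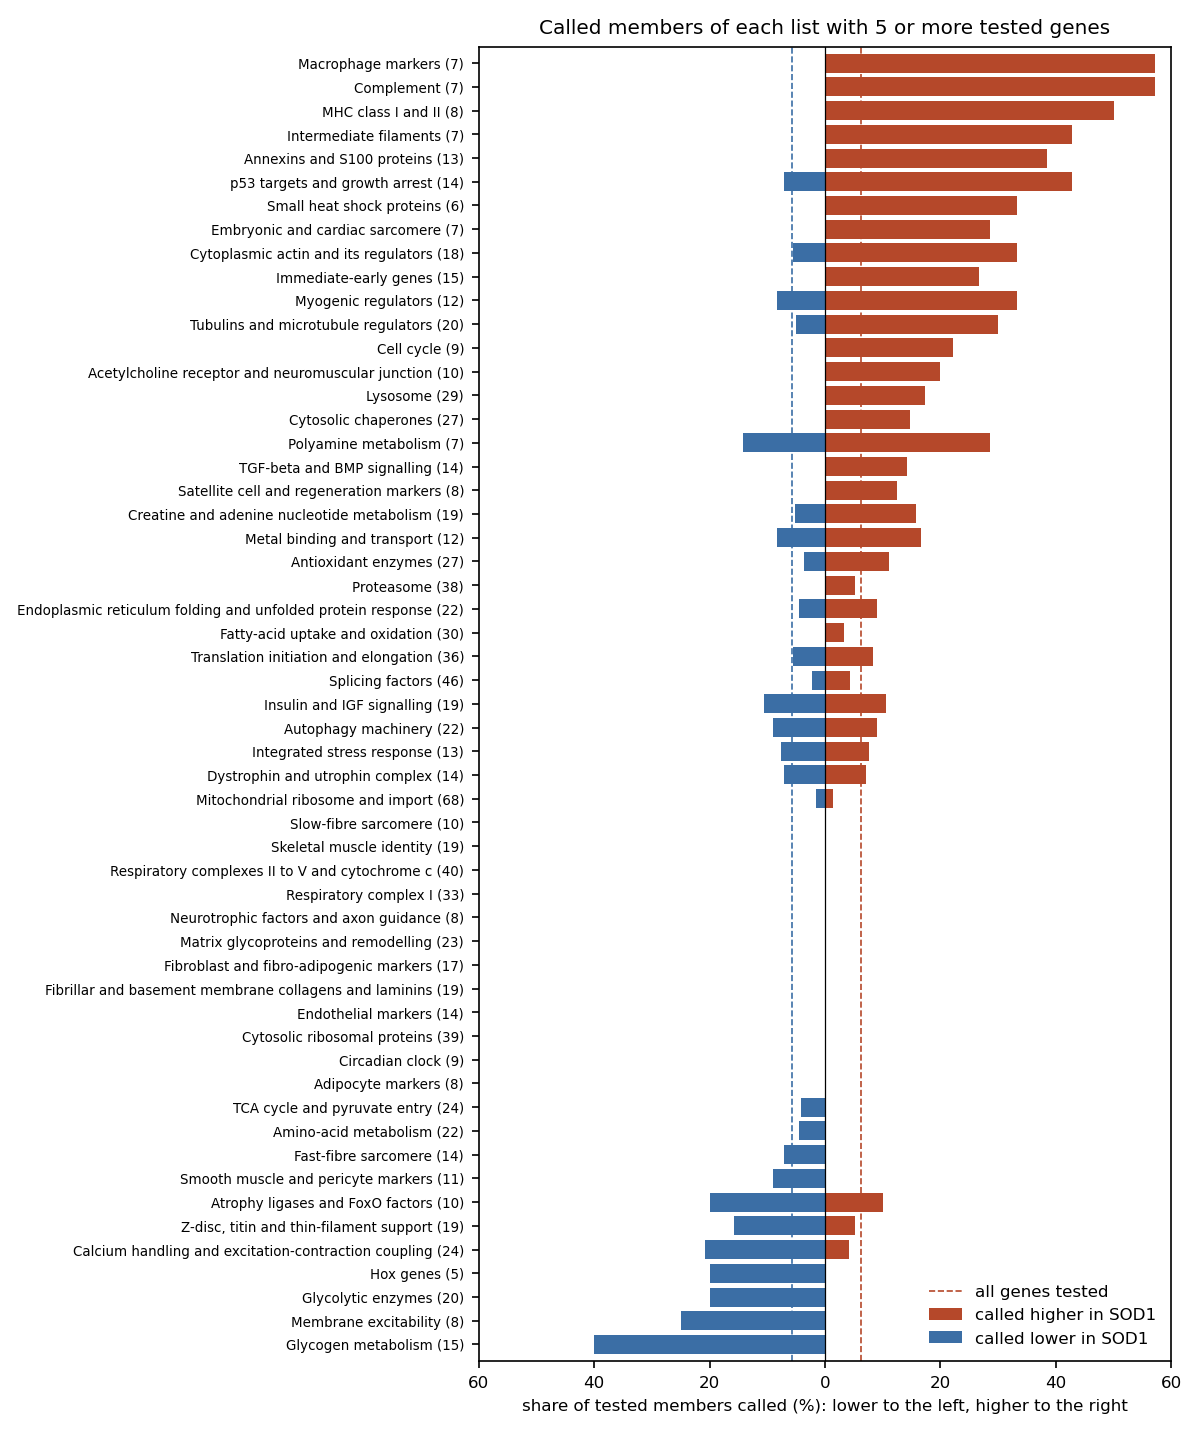
Share of the tested members of each list with 5 or more tested genes (number in brackets) that was called higher (to the right) or lower (to the left) in SOD1, with dashed lines at the shares over all genes tested, 6.31% and 5.77%. Macrophage, complement and MHC lists have the largest shares called higher, and glycogen metabolism the largest called lower, with 6 of 15.

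Genes of growth arrest formed one of the larger groups of rises. Cdkn1a, which encodes the p21 inhibitor of the cell cycle, was 9.41, 10.57, 10.91 and 10.86 on SOD1 replicates 1 to 4 and 6.95, 6.38, 7.57 and 6.48 on NTg replicates 1 to 4 and did not overlap (log2 change 3.59, SE 0.67, adjusted p = 0.00585). Gadd45a, a stress and growth arrest protein that is known to rise in denervated fibres, was 8.92, 9.47, 9.80 and 10.18 on SOD1 replicates 1 to 4 and 6.05, 6.51, 5.96 and 6.15 on NTg replicates 1 to 4 (log2 change 3.43, SE 0.69, adjusted p = 0.00689). Cdkn1c, another inhibitor of the family, rose by 1.39, Btg1 by 1.34, Phlda3, which restrains Akt, by 0.75 and Trp53inp1 by 0.65. Ccng1, itself a p53 target, fell by 0.52 (adjusted p = 0.0311; called in no omission but that of SOD1 replicate 1), and Mdm2, the negative regulator of p53, had a change of 0.69 and was not called (adjusted p = 0.0640). In all 6 of 14 rose and 1 fell (median 0.63; 4 to 7 rose without 1 array). Rb1, the retinoblastoma protein that Cdkn1a helps to keep active, was 8.23, 8.52, 8.86 and 9.30 on SOD1 replicates 1 to 4 and 6.66, 6.56, 6.34 and 6.72 on NTg replicates 1 to 4 and rose 4.46-fold (log2 change 2.16, SE 0.39, adjusted p = 0.00524). Rb1 was 1 of 2 called among 9 tested cell cycle genes, of which none fell and 8 had a positive change (median 0.49). The other was Cdk4, which rose by 0.49 (adjusted p = 0.0385), with 0.325 on another probe set. Cdk4 lost its call in 7 of the 8 omissions. Mdm4, an inhibitor of p53, rose by 1.86 (adjusted p = 0.00876).

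Metallothioneins, small proteins that bind zinc and copper, were among the genes tested for metal handling, of which 2 of 12 rose and 1 fell (median 0.07). Mt2 was 8.99, 8.87, 9.25 and 9.23 on SOD1 replicates 1 to 4 and 6.96, 7.28, 6.76 and 7.18 on NTg replicates 1 to 4 (log2 change 2.04, SE 0.34, adjusted p = 0.00331), so that SOD1 replicate 1 had 93.9% of the mean change of the other SOD1 arrays. Mt1 rose by 1.13 (adjusted p = 0.0159) and was not called without SOD1 replicate 4. Slc40a1, the iron exporter ferroportin, fell by 0.80 (adjusted p = 0.0289), with -0.68 on another probe set that was not called. Slc40a1 lost its call in 5 of the 8 omissions, that of SOD1 replicate 4 among them. Of 27 antioxidant genes 3 rose and 1 fell (median 0.04), so that 14.81% were called, near the 12.1% of all genes tested. Gpx1, a glutathione peroxidase, rose by 0.80 and Txn1, thioredoxin, by 0.86, while Txnip, which binds and inhibits thioredoxin, fell by 0.82 (adjusted p = 0.00800); Cat, catalase, rose by 0.62 on 1 probe set and had a change of 0.20 on another. None of these 3 rises was called without SOD1 replicate 4. Nxn, nucleoredoxin, a relative of thioredoxin, was 8.11, 8.14, 8.12 and 8.47 on SOD1 replicates 1 to 4 and 7.03, 7.09, 7.03 and 6.93 on NTg replicates 1 to 4 and had one of the smallest p-values of all genes (log2 change 1.19, SE 0.16, adjusted p = 0.000597). Odc1, the first enzyme of polyamine synthesis, rose by 1.11 and Sat1, which acetylates polyamines, by 0.73, whereas Smox, the spermine oxidase, was 8.34, 7.01, 7.22 and 6.34 on SOD1 replicates 1 to 4 and 9.18, 8.82, 8.54 and 8.85 on NTg replicates 1 to 4 and fell (log2 change -1.62, SE 0.37, adjusted p = 0.0112). These were the calls among 7 polyamine genes (median 0.13), and none was called without SOD1 replicate 4.

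Genes of protein degradation were called in shares that differed between lists. Of 38 proteasome genes 2 rose and none fell, so that 5.263% were called, against 12.1% of all genes tested. An unadjusted p under 0.05 was found for 16 of the 38, all with a positive change, and for 2217 of all 7523 probe sets. Psma5 rose by 0.68, with 0.41 (adjusted p = 0.0668) on another probe set, and Psmd11 by 0.54, with changes of 0.44, 0.40 and -0.001 on probe sets that were not called. In all 29 of the 38 had a positive change and the median was 0.27. The count of calls was 7 without SOD1 replicate 1 and 0 without replicate 4. The muscle ubiquitin ligase Fbxo32, atrogin-1, known to rise in rapid atrophy, was 8.17, 8.97, 8.88 and 8.29 on SOD1 replicates 1 to 4 and 8.31, 8.80, 8.72 and 8.74 on NTg replicates 1 to 4; the groups overlapped (log2 change -0.06, SE 0.21, adjusted p = 0.874). Foxo1, a transcription factor of atrophy, rose by 0.72 (adjusted p = 0.0167), and Trim54, a relative of the ligase MuRF1, fell by 0.68 (adjusted p = 0.00876). Of 10 atrophy genes 1 rose and 2 fell (median -0.23); Foxo1 and Zfand5, the other that fell, were not called without SOD1 replicate 4, and Trim54 was called in every omission. Map1lc3a, a protein of the autophagosome membrane, was 10.66, 11.13, 11.32 and 11.18 on SOD1 replicates 1 to 4 and 9.97, 9.85, 9.59 and 9.58 on NTg replicates 1 to 4 (log2 change 1.33, SE 0.24, adjusted p = 0.00524), but the 22 autophagy genes as a list had a median of -0.01, with 2 higher and 2 lower (1, Map1lc3a, and 0 without SOD1 replicate 4). Tfeb, a master regulator of lysosomal genes, fell by 0.67 (adjusted p = 0.0164). Of 29 lysosomal genes 5 rose and none fell, so that 17.24% were called, against 12.1% of all genes tested. From 3 to 6 rose without 1 array, the fewest without any SOD1 replicate but the first or without NTg replicates 1 or 4. The 5 were Grn, progranulin (0.95), the proton pump genes Atp6ap2 (0.94) and Atp6v1a (0.82), the protease Ctsd (0.53) and Lamp2 (0.53). Lamp2 had changes of 0.41, 0.385 and 0.13 on other probe sets that were not called, and lost its call in 7 of the 8 omissions. Grn, Atp6ap2 and Atp6v1a were called in every omission.

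Of 6 small heat shock protein genes 2 rose, Cryab and Hspb8, and none fell (median 0.51). Hspb8, which works with Bag3 to clear misfolded protein, was 10.83, 11.64, 11.93 and 11.70 on SOD1 replicates 1 to 4 and 9.91, 10.04, 10.05 and 10.29 on NTg replicates 1 to 4, with no overlap (log2 change 1.45, SE 0.37, adjusted p = 0.0184). Another Hspb8 probe set had a change of 1.09 and was not called. Bag3 itself rose by 0.55, and of 27 cytosolic chaperones 4 rose and none fell. Among them Hspa1b rose by 1.10 and Hspa4 by 0.67, with 0.03 on another Hspa4 probe set. In the endoplasmic reticulum list 2 rose and 1 fell of 22, with a median of 0.31. The shares called of the cytosolic chaperone and endoplasmic reticulum lists, 14.81% and 13.64%, were near the 12.1% of all genes tested. Chac1, a glutathione-degrading target of the integrated stress response, was 7.41, 6.47, 6.12 and 6.03 on SOD1 replicates 1 to 4 and 9.20, 8.97, 8.43 and 7.67 on NTg replicates 1 to 4 and fell (log2 change -2.06, SE 0.54, adjusted p = 0.0216). Cebpb, a transcription factor, rose by 0.70 (adjusted p = 0.0457), with 0.47 on another probe set that was not called. Without SOD1 replicate 4 none of the rises in this paragraph was called, nor was the fall of Chac1.

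Macrophage and complement lists had the largest shares of called genes among lists with 5 or more tested, and MHC genes had the same share as the growth arrest list. Lgals3, galectin-3, a lectin of macrophages that damaged fibres can also make, was 7.76, 8.60, 8.19 and 8.52 on SOD1 replicates 1 to 4 and 6.63, 5.36, 4.73 and 5.79 on NTg replicates 1 to 4 (log2 change 2.64, SE 0.50, adjusted p = 0.00585). Ctss, cathepsin S, rose by 1.21, Csf1r, the receptor for the macrophage growth factor, by 0.90 (another probe set had a change of -0.14) and Adgre1, the F4/80 antigen, by 0.60. That was 4 of 7 tested markers, with none lower and a median of 0.70, and 1 to 4 without 1 array, the fewest without SOD1 replicates 2 or 4 or NTg replicate 4. The mean level of the 13 macrophage markers on the array was 6.38 to 6.75 on SOD1 and 5.59 to 5.73 on NTg arrays. H2-Aa, a chain of MHC class II, was 9.02, 10.35, 9.52 and 9.81 on SOD1 replicates 1 to 4 and 8.17, 8.48, 7.38 and 7.66 on NTg replicates 1 to 4, highest on SOD1 replicate 2 (log2 change 1.75, SE 0.35, adjusted p = 0.00667). H2-Eb1, a beta chain of MHC class II, rose by 1.56, Cd74, the invariant chain, by 1.06 and the class I gene H2-K1 by 0.94: 4 of 8, median 0.91 (2 to 4 without 1 array, the fewest without SOD1 replicates 2, 3 or 4 or NTg replicates 2, 3 or 4). MHC class II and C1q genes are also expressed by macrophages, whose markers were higher in the same arrays, and their part in these rises was not tested. Near-identical class I and class II genes can share probes, so single H2 genes are uncertain. Other probe sets had changes of 0.43 and 0.66 for H2-K1 and of 0.96 for H2-Aa, and none of them was called. Ifitm3, an interferon-induced membrane protein, was 10.15, 10.88, 10.62 and 11.17 on SOD1 replicates 1 to 4 and 9.15, 9.01, 8.74 and 8.74 on NTg replicates 1 to 4 and had one of the smallest p-values (log2 change 1.79, SE 0.26, adjusted p = 0.00143).

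Complement C1q, made mostly by macrophages, rose in all 3 chains, C1qb from 6.44 ± 0.29 (SD, n = 4) to 7.37 ± 0.21 (log2 change 0.93, SE 0.16, adjusted p = 0.00427). C1qa was 6.92, 7.15, 7.10 and 7.05 on SOD1 replicates 1 to 4 and 6.07, 5.99, 5.86 and 2.88 on NTg replicates 1 to 4; its fold of 3.62 rests on the low value of NTg replicate 4 and was 2.12 without it, where it was not called. C1qc rose by 0.83 (adjusted p = 0.0476) and Serping1, the C1 inhibitor, by 0.60 (adjusted p = 0.0271). These 4 were among 7 tested (median 0.74); 1 to 4 were called without 1 array, the fewest without SOD1 replicates 2 or 4 or NTg replicate 4, and of the 4 named C1qb was called throughout.

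Markers of the other cell types in muscle were mostly not called by limma. For scale, 2217 of all 7523 probe sets tested had an unadjusted p under 0.05. None of 14 endothelial genes passed (median -0.10; 1 at an unadjusted p under 0.05), none of 17 fibroblast and fibro-adipogenic genes (median 0.34; 4), none of 19 collagen and laminin genes (median 0.23; 1), none of 23 matrix remodelling genes (median 0.28; 4) and none of 8 adipocyte genes (median 0.48; 0). Lum, lumican, was 7.93, 8.26, 8.13 and 8.33 on SOD1 replicates 1 to 4 and 7.75, 7.63, 6.94 and 7.28 on NTg replicates 1 to 4 and came closest among the fibroblast genes (log2 change 0.77, SE 0.26, adjusted p = 0.0609). Without SOD1 replicate 1, 2 fibroblast and 2 matrix genes were called higher. Abcc9, a channel subunit on the smooth muscle and pericyte list, fell by 0.60 (adjusted p = 0.0375), the 1 call among 11 genes of that list (median 0.10). It was called in no omission but that of SOD1 replicate 1, and which cells its fall came from was not tested. Of 9 Schwann cell and nerve genes on the array, 4 passed the filter and limma called none, with 1 at an unadjusted p under 0.05. Below the filter, Uchl1 (2.61, SE 0.61, adjusted p = 0.0151) and Ncam1 (1.88, SE 0.56, adjusted p = 0.0404) were called higher in the fit without it. Mal, Ngfr and S100b were not called there. Uchl1 and Ncam1 were singled out after their values were seen, and Ncam1 is also on the receptor and junction list. Mbp, the myelin basic protein, was 8.65, 6.57, 9.30 and 8.75 on SOD1 replicates 1 to 4 and 8.88, 9.23, 8.72 and 9.08 on NTg replicates 1 to 4, low only on SOD1 replicate 2. Adiponectin, Adipoq, was 9.30, 9.29, 9.50 and 9.65 on SOD1 replicates 1 to 4 and 7.78, 9.66, 8.55 and 7.02 on NTg replicates 1 to 4, so that the NTg arrays spread more widely than the SOD1 arrays. The mean level of the adipocyte genes was 8.02 to 8.45 on SOD1 and 6.92 to 8.65 on NTg arrays. That of 13 satellite cell genes was 6.50 to 6.94 on SOD1 and 6.05 to 6.18 on NTg arrays. The 8 that passed the filter had a median change of 0.15. Myod1 was the 1 called (0 in every omission but that of SOD1 replicate 1). In the fit without a filter, the dim members had changes of 2.51 (Mymk), 1.88 (Ncam1), 1.23 (Myf5), -0.16 (Vcam1) and -0.40 (Heyl). Which cells these levels came from was not tested.

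Immediate-early genes, which respond within minutes to stimulation and to handling of tissue, were an exception to the order of the arrays. Egr1 was 8.30, 8.18, 7.34 and 7.39 on SOD1 replicates 1 to 4 and 6.46, 7.17, 6.06 and 6.31 on NTg replicates 1 to 4, highest on SOD1 replicates 1 and 2 (log2 change 1.30, SE 0.42, adjusted p = 0.04997). Jun was 8.83, 8.42, 8.97 and 8.98 on SOD1 replicates 1 to 4 and 7.25, 7.81, 7.89 and 7.41 on NTg replicates 1 to 4 (log2 change 1.21, SE 0.32, adjusted p = 0.0216). With Ccn1 (1.20) and Ier5 (0.91) they made 4 of 15 tested. Another Ccn1 probe set had a change of 0.69 and was not called. Without 1 array 0 to 2 of the list were called higher, and none without SOD1 replicate 4 or NTg replicates 1 or 4. The list's median difference from the NTg mean was 0.90, 0.10, 0.23 and 0.32 on SOD1 replicates 1 to 4, and relative to the other controls it was -0.35, 0.30, 0.12 and 0.04 on NTg replicates 1 to 4.

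Carbohydrate metabolism held the largest share of falls. Pfkfb3, which makes the activator of phosphofructokinase, was 6.97, 7.57, 8.15 and 6.33 on SOD1 replicates 1 to 4 and 9.92, 9.87, 9.66 and 9.73 on NTg replicates 1 to 4, with every SOD1 array far below NTg (log2 change -2.54, SE 0.54, adjusted p = 0.00876). Fbp2, the muscle fructose bisphosphatase that runs the opposite step, was 7.89, 6.33, 7.38 and 5.65 on SOD1 replicates 1 to 4 and 8.56, 8.76, 8.61 and 8.27 on NTg replicates 1 to 4 and also fell (log2 change -1.74, SE 0.48, adjusted p = 0.0255). Gpd1 and Gpd2, the glycerol phosphate dehydrogenases of cytosol and mitochondrion, fell by 1.30 and 0.97, though another Gpd1 probe set had a change of -0.32. Of 20 tested genes 4 fell and none rose (median -0.42; 2 to 4 without 1 array, and 2 in every omission but those of SOD1 replicates 1 and 3). The core enzymes Pfkm, Pkm and Ldha had changes of -0.46, -0.43 and -0.41 and did not pass. Phosphorylase kinase, which starts glycogen breakdown on calcium and nerve signals, fell in 3 subunits: Phka1 was 10.17, 9.17, 9.12 and 8.60 on SOD1 replicates 1 to 4 and 10.60, 10.66, 10.56 and 10.79 on NTg replicates 1 to 4 (log2 change -1.39, SE 0.34, adjusted p = 0.0146). Phkg1, the catalytic subunit, fell by 1.42 and Phkb by 0.70. Gyg, glycogenin, fell by 0.61, Pgm1, phosphoglucomutase, by 0.92 and Ppp1r3c, which targets phosphatase to glycogen, by 0.79. That was 6 of 15 glycogen genes lower and none higher, with a median of -0.50 (0 to 7 without 1 array, and none without SOD1 replicate 4).

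The respiratory chain showed small shifts, mostly of one sign, and no call. Of 33 complex I genes 2 had a positive change, with a median of -0.17, and of 40 genes of complexes II to V 3 had, with a median of -0.14; by limma none was called in either list, with 1 and 0 at an unadjusted p under 0.05, while over all genes 50.97% of changes were positive. The shift was not shared by the arrays. The complex I median was 0.02, -0.07, -0.16 and -0.45 on SOD1 replicates 1 to 4, and that of complexes II to V was 0.10, -0.05, -0.15 and -0.44, so that SOD1 replicate 4 was lowest and replicate 1 was not below NTg. Pdk2, which restrains pyruvate entry into the mitochondrion, fell by 0.83 (adjusted p = 0.0263), the 1 call among 24 genes there. That was 4.167% called, against 12.1% of all genes tested. Gpt2, a mitochondrial alanine aminotransferase, was 8.65, 6.91, 7.23 and 6.65 on SOD1 replicates 1 to 4 and 9.15, 9.08, 8.89 and 9.07 on NTg replicates 1 to 4 and fell (log2 change -1.69, SE 0.41, adjusted p = 0.0156), with SOD1 replicate 1 at 18.6% of the mean change of the other SOD1 arrays. Of 30 fatty-acid genes 1 rose, the carnitine carrier Slc25a20 (0.56, adjusted p = 0.0301), so that 3.333% were called. Another Slc25a20 probe set had a change of 0.22 and was not called. In adenine nucleotide metabolism Ampd3, an AMP deaminase, was 7.79, 8.41, 8.43 and 8.89 on SOD1 replicates 1 to 4 and 6.94, 6.66, 6.97 and 7.14 on NTg replicates 1 to 4 and rose (log2 change 1.45, SE 0.31, adjusted p = 0.00876), while Adssl1, the muscle enzyme that regenerates AMP, fell by 0.99 (adjusted p = 0.0300). Pdk2, Gpt2, Slc25a20 and Adssl1 lost their calls without SOD1 replicate 4.

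In some gene pairs the form used by non-muscle or embryonic cells rose while the form of adult muscle was not called; these pairs were set side by side after their values were seen. Eef1a1, the common elongation factor, was 11.75, 12.34, 12.25 and 12.15 on SOD1 replicates 1 to 4 and 10.98, 10.76, 10.62 and 10.53 on NTg replicates 1 to 4 (log2 change 1.40, SE 0.27, adjusted p = 0.00628), and its adult muscle counterpart Eef1a2 had a change of -0.40 (adjusted p = 0.248). Slc25a5, the widely expressed adenine nucleotide carrier, rose by 1.08 (adjusted p = 0.0170), and the muscle form Slc25a4 had a change of -0.16 (adjusted p = 0.641). The difference between the members of a pair was not tested, and Slc25a5 was not called without SOD1 replicate 4. Of 36 translation factors 3 rose, the others being Eif4a1 (0.96) and Eif3b (0.64), and 2 fell (1, Eef1a1, and 0 without SOD1 replicate 4). The share called, 13.89%, was near the 12.1% of all genes tested. Other Eif4a1 probe sets had changes of 0.83, which was called, and 0.40, which was not. None of 39 cytosolic ribosomal protein genes was called by limma (median 0.10; 3 at an unadjusted p under 0.05). Of 46 splicing genes 2 rose, Srsf1 (0.61) and Srsf6 (0.48), and Mbnl1, a splicing regulator of mature muscle, fell by 0.73 (adjusted p = 0.0414). That was 6.522% called, against 12.1% of all genes tested. Other probe sets had changes of -0.38 to 0.34 for Srsf1 and of -0.18 for Srsf6, and none of them was called. Without SOD1 replicate 4 no splicing gene was called, without SOD1 replicate 1 7 were higher, and Mbnl1 was called in that omission alone.

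Among the largest changes, several genes belong to no list. Cpne2, a calcium-dependent phospholipid-binding protein, was 7.71, 8.87, 8.79 and 9.27 on SOD1 replicates 1 to 4 and 5.16, 4.08, 1.39 and 4.20 on NTg replicates 1 to 4 (log2 change 4.95, SE 0.83, adjusted p = 0.00385); its fold of 31.0 was 18.15 without the very dim NTg replicate 3. Atp13a3, a transport ATPase, was 8.50, 9.51, 9.85 and 10.18 on SOD1 replicates 1 to 4 and 6.46, 6.12, 6.26 and 6.43 on NTg replicates 1 to 4 (log2 change 3.19, SE 0.59, adjusted p = 0.00585). Aif1l, an actin-binding protein, rose 9.0-fold, Sh3d19 8.66-fold and Fez1, a protein of axon outgrowth, 7.53-fold. Malat1, a long non-coding RNA of the nucleus, was 7.90, 9.91, 8.85 and 9.27 on SOD1 replicates 1 to 4 and 6.34, 5.73, 7.12 and 7.51 on NTg replicates 1 to 4 (log2 change 2.31, SE 0.53, adjusted p = 0.0113), but its other probe sets had changes of 1.24 (adjusted p = 0.0563) and 1.26 (adjusted p = 0.0339). Peg3, an imprinted zinc-finger gene, rose by 2.15 and Arpp21, a phosphoprotein known from neurons, by 1.90. Aif1l, Malat1, Peg3 and Arpp21 lost their calls without SOD1 replicate 4.

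Of the falls, Pla2g7, which inactivates platelet-activating factor, was 6.25, 5.11, 5.19 and 4.58 on SOD1 replicates 1 to 4 and 7.38, 7.88, 8.03 and 8.33 on NTg replicates 1 to 4, the largest fall called (log2 change -2.62, SE 0.43, adjusted p = 0.00331). Tspan8, a tetraspanin, was 7.80, 6.57, 7.02 and 6.21 on SOD1 replicates 1 to 4 and 8.47, 9.06, 8.29 and 8.82 on NTg replicates 1 to 4 (log2 change -1.76, SE 0.33, adjusted p = 0.00585). Rasd2, a small GTPase, fell by 1.73, Aebp1, a secreted matrix protein, by 1.25, Fzd7, a Wnt receptor of muscle stem cells, by 1.25, Me1, malic enzyme, by 1.26 and Ccnk, cyclin K, by 1.21. Each of these kept its call in every omission. Ccdc50 had, with Tubb6, the smallest p-value of all genes, at 8.26, 8.21, 8.16 and 8.02 on SOD1 replicates 1 to 4 and 9.34, 9.65, 9.30 and 9.63 on NTg replicates 1 to 4 (log2 change -1.32, SE 0.15, adjusted p = 0.000154); the SOD1 arrays lay close together and all well below NTg. Shisa2, Slc37a4, which carries glucose 6-phosphate, Rxrg, a retinoid receptor, and Satb1, a chromatin organiser, fell by 1.43, 1.28, 1.21 and 1.20 and were not called without SOD1 replicate 4.

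The SOD1 arrays differed in how far they lay from NTg. Over the 305 genes that rose, the median difference from the NTg mean was 0.52, 0.83, 0.84 and 1.04 on SOD1 replicates 1 to 4, and over the 279 that fell it was -0.40, -0.67, -0.64 and -0.80. SOD1 replicate 1 was nearest to NTg for 238 of the rises and 213 of the falls, and SOD1 replicate 4 was farthest for 198 and 172. Among the 25 largest rises replicate 1 was the lowest SOD1 array in 24, and among the 25 largest falls it was the highest in 24. These genes were called from the same arrays, so the order is a description. SOD1 replicate 1 lay within the range of the NTg arrays for 32 called genes, replicate 2 for 0, replicate 3 for 8 and replicate 4 for 2.

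To set each array against genes called without it, the fit was repeated with that array left out. The filter on dim probe sets and the choice of a probe set for each gene still took the mean over all arrays. The same NTg arrays served both to choose the genes and as the baseline, so the shares are a description. SOD1 replicate 1 then had a median of 45.9% of the change of the other 3 arrays over 840 genes called without it, and lay beyond all 4 NTg arrays for 77.7% of them. SOD1 replicates 2 and 3 had 101% and 96.2% over 242 and 284 genes. SOD1 replicate 4 had 124% over 117 genes. Over the 200 genes of smallest p without the array the shares were 48.9%, 101%, 99.7% and 127%. Replicates 2 and 3 thus sat near the mean of the others, with replicate 1 below and replicate 4 above. The difference between single arrays has no replicate of its own and was not tested. The labels give no disease stage for single mice.

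**Figure D4:**
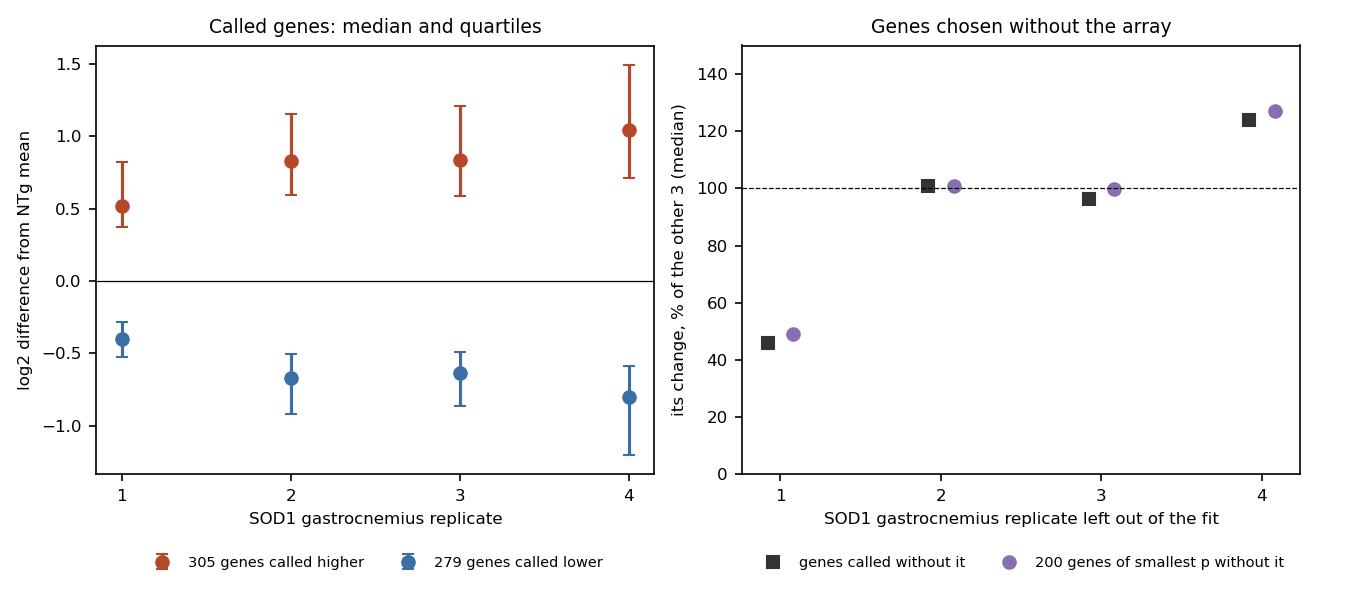
Left, log2 difference from the NTg mean (y axis) on each SOD1 array for the 305 genes called higher and the 279 called lower, with points at the median and bars to the quartiles. Right, for each SOD1 array, its change as a percentage of that of the other 3 (y axis, median over the genes called in a fit without it, squares, or the 200 of smallest p, circles), 45.9% for replicate 1 and 124% for replicate 4.

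The order of the arrays did not hold for every class. Of 55 lists with at least 5 tested genes, SOD1 replicate 4 was farthest from NTg in 31 and replicate 1 nearest in 29. MHC and macrophage genes were highest on SOD1 replicate 2, with medians of 0.53, 1.41, 0.71 and 0.87 and 0.56, 1.06, 0.58 and 0.67 on replicates 1 to 4. The glycolytic list went from -0.02 on replicate 1 to -0.90 on replicate 4, and membrane excitability from -0.12 to -0.99. Fast-fibre sarcomere genes were lower than NTg only on replicate 4, with medians of 0.36, 0.13, 0.18 and -0.41, and the skeletal muscle identity genes likewise, with 0.32, 0.06, 0.12 and -0.37, while the NTg arrays themselves gave -0.33, -0.24, 0.37 and 0.26 relative to one another. The p53 list, by contrast, had similar medians on replicates 1 to 3, and over replicates 1 to 4 these were 0.51, 0.42, 0.46 and 0.83.

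**Figure D5:**
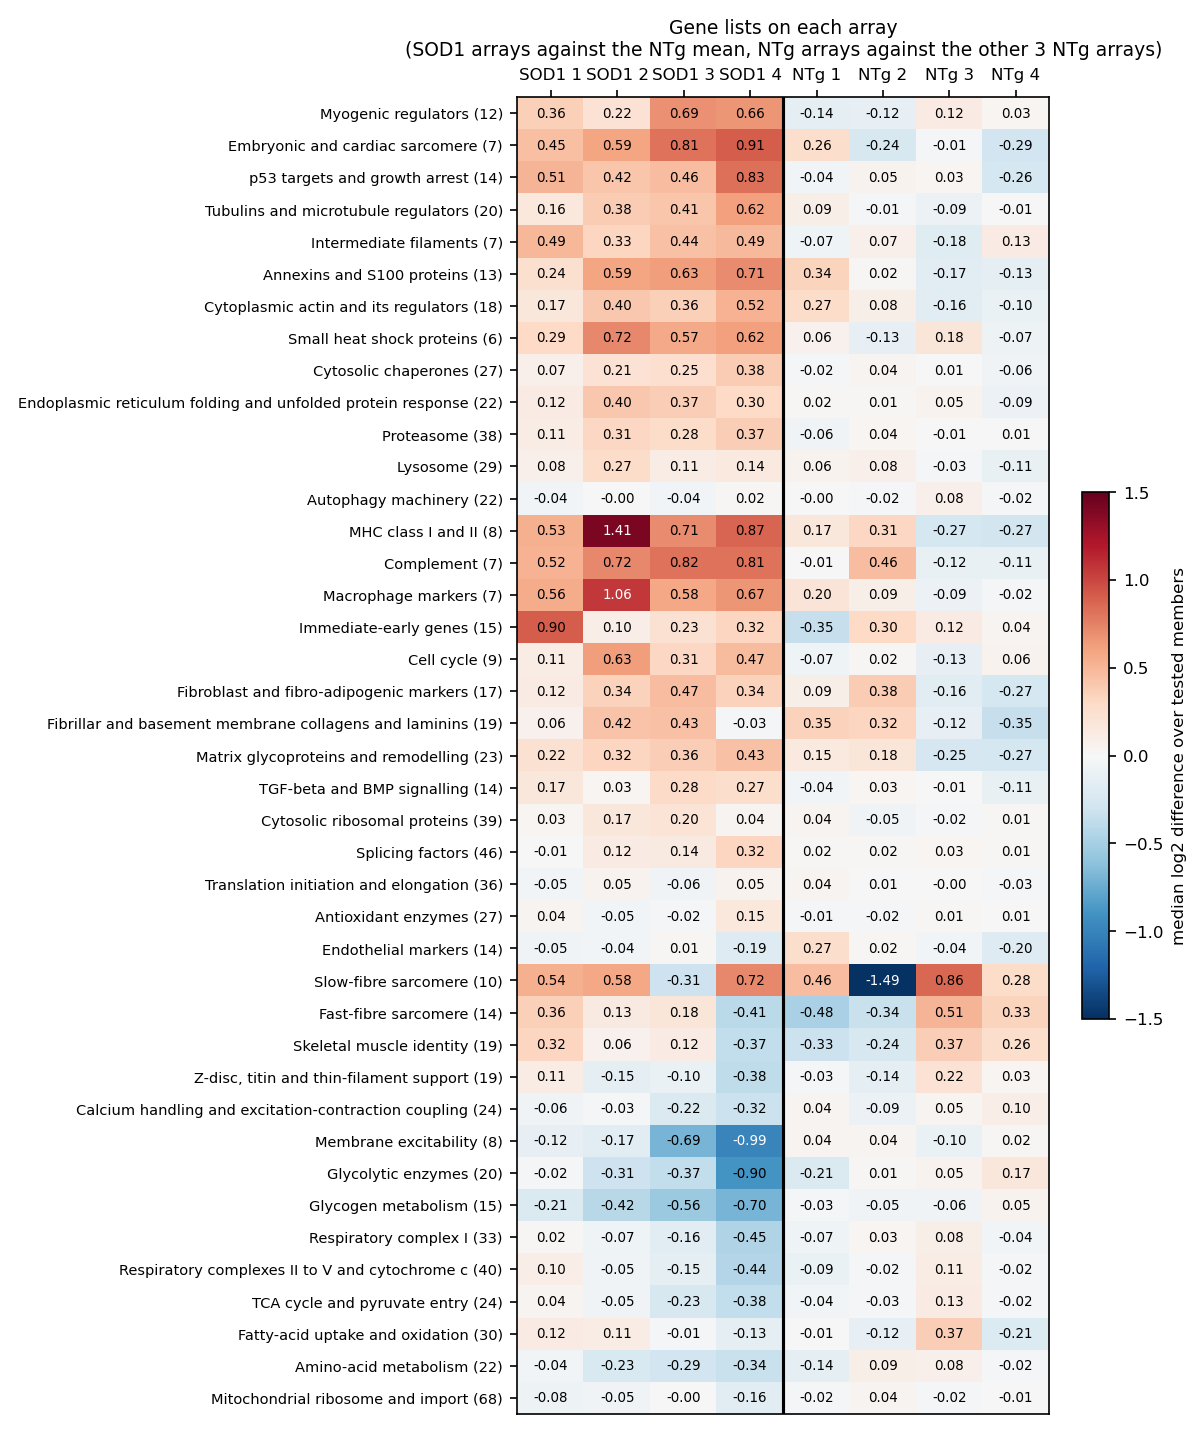
Median log2 difference over the tested members of 41 lists (rows, number of genes in brackets) on each array (columns): SOD1 arrays against the NTg mean, NTg arrays against the other 3 NTg arrays. Glycolytic, excitability and respiratory lists are lowest on SOD1 replicate 4 (-0.90, -0.99 and -0.45), immediate-early genes are highest on SOD1 replicate 1 (0.90), and the slow-fibre list varies most among the NTg arrays.

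Called genes were also more variable in SOD1 than in NTg muscle: the median SD was 0.26 against 0.15, and the SD was larger in SOD1 for 456 of 584 called genes. Over genes that were not called the medians were 0.20 and 0.15. By the rule of the largest and smallest SOD1 SD among called genes that changed by at least 1, the most variable were Krt8, Chrna1, Ankrd1, Vapb, Mylk2, Krt18, Fbp2, Peg3, Gpt2 and Gpd1. Vapb, a membrane protein of the endoplasmic reticulum that is mutated in a familial form of amyotrophic lateral sclerosis, was 8.68, 6.84, 6.06 and 6.92 on SOD1 replicates 1 to 4 and 8.51, 8.50, 8.34 and 8.34 on NTg replicates 1 to 4. SOD1 replicate 1 was above every NTg array and the other SOD1 arrays below all of them, so the groups overlapped although the mean difference passed (log2 change -1.29, SE 0.34, adjusted p = 0.0216), and another Vapb probe set had a change of -0.36 (adjusted p = 0.146). The call was not made without SOD1 replicate 4. The least variable were C1qa, Ccdc50, Tspo, Arhgef2, Nxn, Mt2, Slc25a5, Odc1, Ddt and Cbr2. Tspo, a cholesterol-binding protein of the outer mitochondrial membrane, was 7.94, 8.24, 8.11 and 8.07 on SOD1 replicates 1 to 4 and 7.08, 7.03, 6.85 and 6.91 on NTg replicates 1 to 4 (log2 change 1.12, SE 0.26, adjusted p = 0.0125), and Ddt, a relative of macrophage migration inhibitory factor, rose by 1.27.

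The SOD1 effect in gastrocnemius was set against that in triceps, a fore limb muscle, by the difference of both effects in the same fit. Arrays of both muscles were treated as independent, because no label says whether those of the same number came from the same mouse. None of 7523 probe sets (0.0%) passed in limma, and 710 had an unadjusted p under 0.05. The description of NTg triceps replicate 4 names gastrocnemius and its title triceps; it was kept by its title, and without it 0 passed. With array weights 18 passed, and without NTg triceps replicate 1, 34 did. The largest difference among genes named above was that of Sln, -3.47 on the log2 scale (adjusted p = 0.386), where the change was 4.88 in gastrocnemius and 8.34 in triceps. For Chrna1 the difference was 0.42, and for H2-Aa 1.42. No gene is therefore called particular to gastrocnemius here.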

How the data were processed

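Total RNA of whole muscle was hybridised to Affymetrix mouse arrays. The authors deposited one value table of log2 signals, which the submitters' processing notes say came from MAS5, with no version given. Values were used as deposited, without further normalization. Of 10748 probe sets, 9874 carry 1 gene symbol, 387 several and 487 none. The 30% with the lowest mean over all arrays (log2 under 5.88) were left out, and 7523 probe sets were tested with limma 3.58.1 (R 4.3.3), fitting 5 group means to all 20 arrays with an intensity trend and Benjamini-Hochberg adjustment, called at 0.05. A gene is its single-symbol probe set of highest mean, 4832 in all. Named genes were the 25 largest non-overlapping rises and falls, up to 6 called members of each of 60 lists (or the 2 largest changes where none was called), Sod1, and the 10 genes of largest and smallest SOD1 spread among called genes that changed by at least 1. The comparison and lists were chosen with earlier results of these data known. Alternatives were other filters, quantile normalization, no trend, a robust prior, array weights, a replicate block, the 8 arrays alone and each array left out. Promoters are from RefSeq. The fit was checked on simulated data.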

Additional observations from a re-analysis of the deposited data

Results flagged for a closer look

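For 18 of 398 groups of 4 arrays examined over the named genes, 1 array stood apart from the other 3 by more than the 95% limit of Dixon's test; chance gives about 1 in 20 groups. SOD1 replicate 4 stood apart for Hspa4 at 8.37 (above 7.84 to 7.90 on the other 3), Nxn at 8.47 (above 8.11 to 8.14 on the other 3), Ckm at 11.86 (below 12.33 to 12.42 on the other 3) and Robo4 at 5.21 (below 5.81 to 5.92 on the other 3). SOD1 replicate 3 stood apart for Slc25a20 at 8.98 (below 9.44 to 9.52 on the other 3). SOD1 replicate 1 stood apart for Sdhc at 9.85 (above 9.48 to 9.54 on the other 3), Myl4 at 8.03 (below 9.37 to 9.44 on the other 3) and Tubb5 at 8.16 (below 8.61 to 8.66 on the other 3). NTg replicate 4 stood apart for Rasd2 at 8.88 (above 8.22 to 8.33 on the other 3), Atp6ap2 at 7.42 (below 7.73 to 7.79 on the other 3) and C1qa at 2.88 (below 5.86 to 6.07 on the other 3). NTg replicate 3 stood apart for Mt1 at 7.78 (above 7.17 to 7.23 on the other 3). NTg replicate 2 stood apart for Krt8 at 5.81 (above 5.11 to 5.17 on the other 3). NTg replicate 1 stood apart for Anxa4 at 6.76 (above 6.26 to 6.33 on the other 3), Cdkn1c at 6.64 (above 5.69 to 5.74 on the other 3), S100a4 at 6.81 (above 5.93 to 6.04 on the other 3), Sema6c at 8.21 (above 7.84 to 7.86 on the other 3) and Bhlhe40 at 8.12 (below 8.94 to 9.10 on the other 3). No array but SOD1 replicate 2 was without such a gene.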

How the results depend on the processing

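The number of probe sets called between SOD1 and NTg gastrocnemius, 902, was 713 with the lowest 60% left out, 981 with no filter, 878 without the trend, 972 after quantile normalization and 890 with a robust prior. It was 2512 with array weights, and 1768 with only the 8 arrays compared. With the replicate number as a block it was 1310 (638 higher and 672 lower). Deviations from the group means of same-numbered SOD1 and NTg gastrocnemius arrays had correlations of -0.171, 0.0301, -0.0436 and -0.086. No SOD1 array correlated best with its own number, and the numbers were not taken as pairs. These arrays are of different genotypes, so they cannot show whether gastrocnemius and triceps arrays of a number shared a mouse. That was not examined. Leaving out each of the 20 arrays in turn gave 178 to 1341. The difference from triceps, with 0 calls, had 18 with array weights and 0 to 34 with 1 array left out. None of the named called genes changed direction under the alternatives in which it was tested; directions of the other called probe sets were not compared. List medians moved beyond the spread between arrays in 25 of 1739 alternative values; the embryonic sarcomere median of 0.57 was 2.13 with no filter, which admits dim genes such as Myh3. The cause of the other differences was not tested. Signals near the bottom of the scale, such as those of Tubb6, Cpne2 and Krt18 on NTg arrays, limit the precision of their folds.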
